A study of Mus musculus with 2 samples.

Results

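Blood clotting and the removal of clots depend on a set of 34 genes that were followed here in the prefrontal cortex (PFC) of mice. The genes were taken by name from the known coagulation and fibrinolysis pathway, with earlier results of these data known. No threshold was set on their measured values. The genes were 34 of the 37069 gene names on the arrays, and 27117 of these names had a ratio between the groups. They were divided into 22 genes whose products are mainly made in the liver, 10 whose products are made in vessels, circulating cells or brain, and 2 enzymes of the vitamin K cycle, which most tissues make. F5 and Pros1 were each placed by the site of their main description, F5 with the liver and Pros1 with vessels or brain.

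The PFC was compared between a control (C) group, which received ordinary care and was housed in groups, and a group exposed to chronic mild stress (CMS) for 4 weeks and housed singly. All mice were male C57Bl/6 N sea mice, 9 to 10 weeks old at the start. Total RNA was pooled within each group, from 7 mice per pool according to the design text of the series and with 10 mice per group stated in the methods, and each pool was hybridized to 1 one-color Agilent array, both on 1 slide. With 1 array per group there were no replicates, so the variation between mice was not measured, the groups were not tested against each other, and each value describes these pools only. On each array 65.2% (C) and 65.9% (CMS) of 59305 spots were well above background, no spot was saturated, and spots of the same probe differed in log2 ratio with a standard deviation of 0.13 over 342 probes.

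Clotting is a chain of proteases that are secreted as inactive precursors. Tissue factor, a membrane protein of perivascular cells and astrocytes, starts the chain, thrombin carries it to fibrin, and antithrombin and the protein C system hold it back. Plasmin dissolves fibrin again, and several of the factors need a vitamin K-dependent modification to work. Hepatocytes secrete most of the soluble factors into plasma, whereas the receptors and regulators on the vessel wall are made by the cells that carry them.

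Of the 34 genes, 32 had a ratio and 30 were bright (well above background) on both arrays. In the CMS pool 17 were more than 2-fold higher and 0 more than 2-fold lower. Over all genes with a ratio, 1.96% were more than 2-fold higher and 0.564% more than 2-fold lower. All 17 were liver-made genes. Several of them, among them Fgb, Kng1, Plg, Cpb2, F12 and Fga, are in the coagulation group that the study itself drew from these arrays, so their direction is not independent evidence. In tissue RNA, fewer cells of a type and less RNA per cell cannot be told apart.

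The promoters of genes that lay on both sides of this division are shown from RefSeq, build GRCm38.p6. Each runs from 250 bases before to 50 bases after the gene start, 300 bases in all, and 28 of the 34 genes had one, the others being Thbd, Plg, Proc, Kng1, Plat and Plau. Both strands were searched for 3 motifs, TTGCNNAA for the C/EBP factors and CAAAGTNCA for HNF4, regulators of hepatocyte genes, and GGGCGG, the GC box common in broadly active promoters. Capitals mark the matches. The fibrinogen genes Fgg, Fga and Fgb are shown because they lie side by side with no protein-coding gene between them, Serpinc1 because it was among the genes with the highest ratio, F9 because it is liver-made but had similar signals in both pools, and Vkorc1 because most tissues make it.
Fgg, chr3:83007474-83007773, plus strand: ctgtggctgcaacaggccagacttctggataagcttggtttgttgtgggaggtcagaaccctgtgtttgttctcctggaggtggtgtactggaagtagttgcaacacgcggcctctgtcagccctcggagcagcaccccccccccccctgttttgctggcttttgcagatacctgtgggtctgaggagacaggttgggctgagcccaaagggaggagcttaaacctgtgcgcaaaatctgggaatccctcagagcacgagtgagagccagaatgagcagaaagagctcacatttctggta
Fga, chr3:83025903-83026202, plus strand: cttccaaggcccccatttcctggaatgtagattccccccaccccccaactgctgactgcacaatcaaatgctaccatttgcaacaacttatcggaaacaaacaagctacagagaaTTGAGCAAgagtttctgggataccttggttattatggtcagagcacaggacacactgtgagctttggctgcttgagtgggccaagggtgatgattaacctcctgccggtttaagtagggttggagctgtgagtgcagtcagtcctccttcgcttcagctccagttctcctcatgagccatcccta
Fgb, chr3:83049814-83050113, minus strand: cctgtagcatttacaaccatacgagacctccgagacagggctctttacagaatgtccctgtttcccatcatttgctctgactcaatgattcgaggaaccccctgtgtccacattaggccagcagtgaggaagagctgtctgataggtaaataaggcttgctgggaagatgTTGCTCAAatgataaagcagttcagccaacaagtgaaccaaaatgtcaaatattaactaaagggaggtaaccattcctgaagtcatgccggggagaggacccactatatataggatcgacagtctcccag
Serpinc1, chr1:160978333-160978632, plus strand: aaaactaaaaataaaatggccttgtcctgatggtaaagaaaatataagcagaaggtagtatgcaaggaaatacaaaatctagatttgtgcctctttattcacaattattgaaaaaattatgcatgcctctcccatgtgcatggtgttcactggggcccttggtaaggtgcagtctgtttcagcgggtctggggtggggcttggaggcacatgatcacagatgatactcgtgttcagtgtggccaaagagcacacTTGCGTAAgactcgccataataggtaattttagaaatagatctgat
F9, chrX:59999214-59999513, plus strand: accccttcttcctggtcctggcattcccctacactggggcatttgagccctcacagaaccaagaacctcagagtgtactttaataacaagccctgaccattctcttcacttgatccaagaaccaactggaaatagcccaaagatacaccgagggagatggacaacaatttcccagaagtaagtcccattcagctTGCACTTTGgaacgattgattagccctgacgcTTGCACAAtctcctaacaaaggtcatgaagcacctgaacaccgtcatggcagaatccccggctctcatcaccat
Vkorc1, chr7:127895568-127895867, minus strand: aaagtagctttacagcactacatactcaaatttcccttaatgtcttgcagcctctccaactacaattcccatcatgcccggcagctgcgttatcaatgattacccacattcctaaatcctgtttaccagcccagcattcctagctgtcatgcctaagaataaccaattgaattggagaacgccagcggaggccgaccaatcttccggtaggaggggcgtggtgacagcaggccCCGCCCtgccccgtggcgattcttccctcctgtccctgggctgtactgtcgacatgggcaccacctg

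In these windows the C/EBP motif began 135 bases before the start of Fga and 80 bases before that of Fgb, and lay just past the start of Serpinc1. No motif was found in the Fgg window. F9 held an HNF4 match 56 bases and a C/EBP match 24 bases before its start, and Vkorc1 a GC box 17 bases before its start. Over the set, the C/EBP motif was found for 9 of 19 liver-made genes with a promoter for 2 of 7 genes made in vessels or brain and for 1 of the 2 vitamin K enzymes, Ggcx, where 10.8% of all 32851 promoters held it. The HNF4 motif was found for F9 and Serpind1 (1.41% of all promoters). The GC box was found for F5 and Klkb1, that is 2 of 19 liver-made genes, for F3, Plaur, Pros1 and Tfpi, 4 of the 7 genes made in vessels or brain, and for both vitamin K enzymes (35.7% of all promoters). No base belonged to matches of more than 1 motif. Promoters of liver-made genes held a median of 5 CpG dinucleotides (1 to 8). The median was also 5 (2 to 32) over the 9 promoters of genes made in vessels or brain, and 7 over all promoters. A match describes letters in a window and is not a measured site.

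Signals are given as processed intensities scaled to a mean of 2500 on each array, with the error that the scanner software assigns to a spot. This error covers 1 array and not the mice. Levels of different probes were not set against each other, and each comparison is between the 2 pools for 1 probe.

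**Figure D1:**
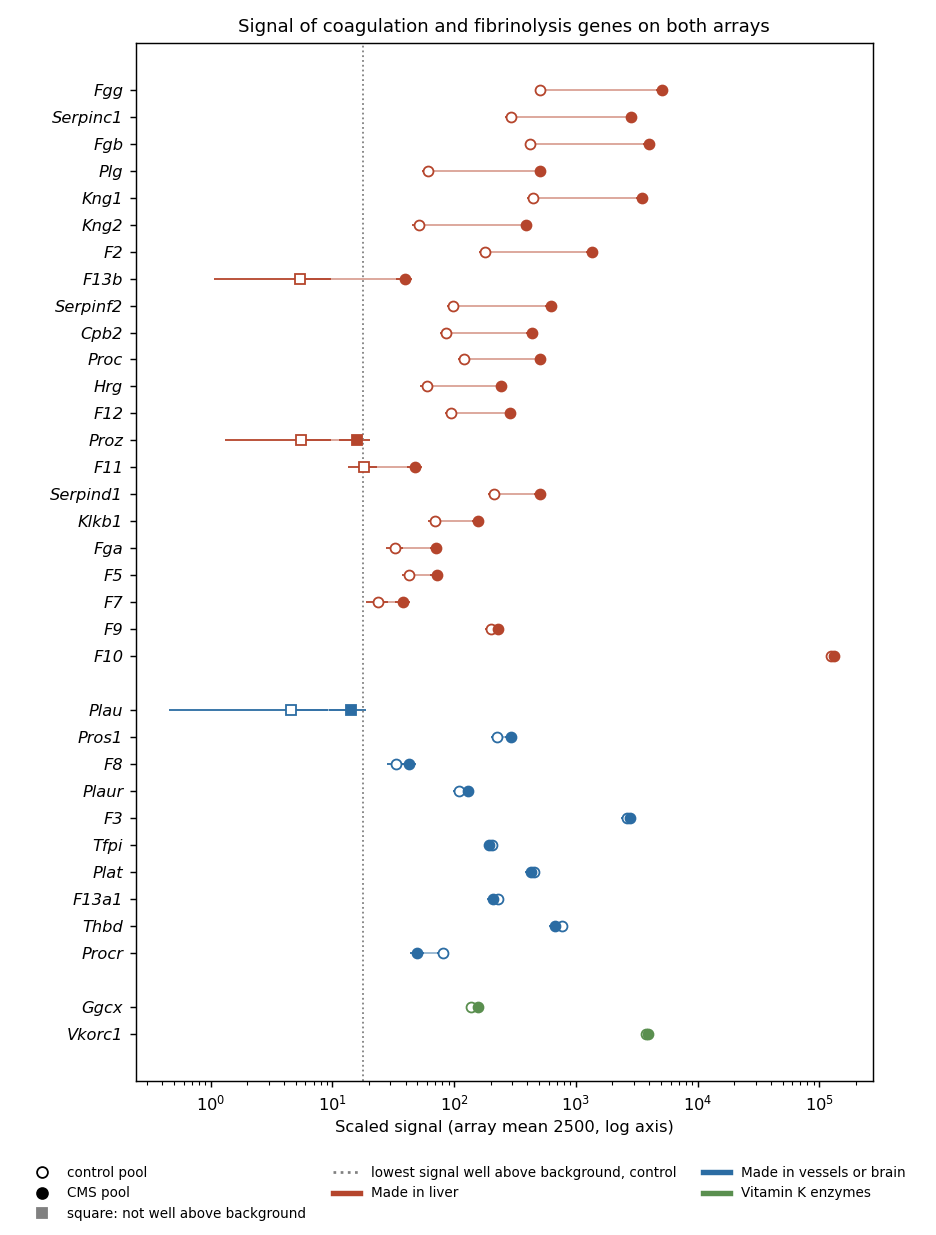
Scaled signal of each gene on the control array (open) and the CMS array (filled), on a log axis, with bars for the scanner's error. Squares mark dim probes, those not well above background, and the dotted line marks the lowest signal well above background on the control array, 17.8. Genes are ordered within each group by the ratio of their signals. The liver-made genes at the top shift to the right in the CMS pool, Fgg from 512 to 5066, while the signals of Plat, 453 and 428, nearly coincide.

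Fibrinogen, the soluble precursor of the fibrin mesh, is a protein of 3 chains, each with its own gene. The gamma chain gene, Fgg, had a signal of 512 ± 51.4 in the control pool and 5066 ± 507 in the CMS pool, a 9.89-fold difference (log2 ratio 3.31 ± 0.20). The beta chain gene, Fgb, went from 422 ± 42.4 to 3967 ± 397, or 9.4-fold (3.23 ± 0.20). Both probes were far above background on both arrays, and the scanner errors of the pools did not overlap. The alpha chain gene, Fga, was read by 2 probes. Its brighter probe gave 32.9 ± 5.07 and 71.3 ± 8.10, a 2.17-fold difference (1.11 ± 0.28). Its other probe gave 14.7 in the control pool, where it was dim, that is, not well above background, and 121 in the CMS pool. For such probes the difference is given as a bound, here at least 6.80-fold, taken against the higher of the probe's own signal and the lowest signal well above background on that array. Where a dim probe's own signal was the higher of these, the value is its measured ratio and not a minimum. The Fga probes thus differed in the size of the rise and not in its direction. The brighter probe did not pass 2-fold after normexp background correction with quantile normalization, where its log2 ratio was 0.42.

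The transglutaminase factor XIII joins fibrin strands. Its catalytic subunit gene, F13a1, which macrophages and platelets express, had similar signals of 231 in the control pool and 208 in the CMS pool (log2 ratio -0.15 ± 0.21). Its carrier subunit gene, F13b, made in the liver, was dim in the control pool. This probe was printed many times, which allows a look at the spots themselves. The 9 control spots lay between 3.92 and 9.37 with a median of 4.62, and the 10 CMS spots between 30.9 and 46.2 with a median of 39.3. The spots of the pools did not overlap, and the difference was at least 2.21-fold. The subunits of this enzyme therefore differed, the liver-made one being higher and the other one within the scanner error of equal signals. After normexp correction F13b was at 0.50 and did not pass 2-fold.

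Thrombin and the complexes that lead to it were divided. Prothrombin, F2, the precursor of thrombin, had a signal of 178 ± 18.4 in the control pool and 1349 ± 135 in the CMS pool, 7.58-fold higher (log2 ratio 2.92 ± 0.21). By the brightest probe of each gene, F2 was the only one of its group of 5 past 2-fold. Factor V, F5, the cofactor that speeds thrombin formation, had 42.6 ± 5.54 and 71.8 ± 7.98 (0.75 ± 0.25), a difference beyond 2 scanner errors but below 2-fold. Factor VIII, F8, the cofactor that endothelial cells make, had 33.3 and 42.8 (0.36 ± 0.30). Factor IX, F9, the protease missing in hemophilia B, had 200 ± 20.5 and 229 ± 23.3 (0.19 ± 0.21). F8 and F9 were within 2 scanner errors of equal signals.

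Factor X, F10, the protease that cuts prothrombin, was the gene whose probes disagreed most. Its brighter probe, for accession NM_001242368, had 125942 in the control pool and 132539 in the CMS pool (log2 ratio 0.07 ± 0.20). Its other probe, for NM_007972, had 66.6 ± 7.96 and 481 ± 48.3, 7.23-fold higher in the CMS pool (2.85 ± 0.23). By the rule that the brightest probe stands for a gene, F10 is counted as similar in both pools, and by its other probe it would be counted as higher. Probe sequences were not at hand, so whether the much brighter probe reads F10 was not checked, and its value is uncertain. F10 lies between F7 and Proz with no protein-coding gene between them. Factor VII, F7, the partner of tissue factor, had 23.7 ± 4.70 and 37.9 ± 5.49 (0.68 ± 0.35), just above background, and its other probe, dim in the control pool, was at least 1.57-fold higher. Protein Z, Proz, a cofactor in the inhibition of factor X, was dim on both arrays by the probe that RefSeq names (NM_025834), with 5.55 and 15.8, so it has no ratio in the counts here. The study's tables pair a further accession, AK005011, with Proz, and this probe had 94.7 ± 10.4 and 477 ± 47.9, 5.03-fold higher in the CMS pool (2.33 ± 0.21). Counting it, 18 of the 34 genes were more than 2-fold higher, and since the study chose it on these arrays it is not independent evidence.

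**Figure D2:**
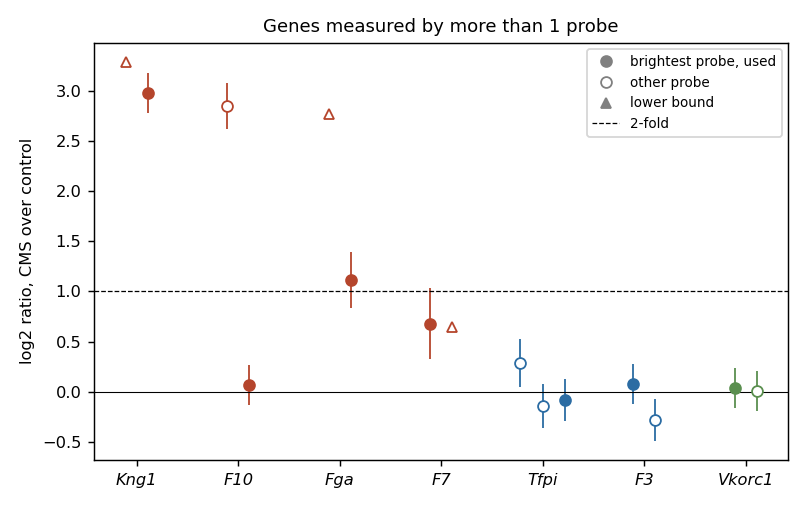
Log2 ratio of CMS over control for each probe of the genes with more than 1 probe that had a ratio, with the scanner's error as bars. Filled symbols mark the brightest probe, which stands for the gene, and triangles mark lower bounds. The probes of F10 lie at 0.07 and 2.85, while those of Vkorc1 lie at 0.04 and 0.01.

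All 5 genes of the contact and kinin system passed 2-fold toward the CMS pool (1.96% of all genes with a ratio), with a median log2 ratio of 1.61. Kininogen is the precursor of the peptide bradykinin and carries prekallikrein in plasma. Kng1 had a signal of 441 ± 44.4 in the control pool and 3487 ± 349 in the CMS pool, 7.90-fold higher (2.98 ± 0.20), and its other probe was dim in the control pool and at least 9.77-fold higher. Kng2 had 51.2 ± 6.22 and 392 ± 39.4, 7.66-fold higher (2.94 ± 0.23). Kng1 and Kng2 are near copies that lie side by side, with Hrg next to Kng2, and their probes may read transcripts of both, so their values are uncertain as separate measurements. Factor XII, F12, which starts the contact pathway, went from 94.9 ± 10.5 to 289 ± 29.2, 3.04-fold higher. Prekallikrein, Klkb1, the protease that frees bradykinin, went from 69.6 ± 8.50 to 157 ± 16.5, 2.26-fold higher. Its neighbor F11, the protease that links this pathway to factor IX, had 18.3 ± 4.93, where it was dim, and 47.7 ± 6.56. Its measured ratio was 2.60-fold (1.38 ± 0.44), which is not a minimum. The kininogens thus had larger ratios than F12 and Klkb1, while the ratio of F11 rests on a dim control signal. After normexp correction F11 was at 0.38 and Klkb1 at 0.67, so that neither passed 2-fold.

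Inhibitors of clotting differed by where they are made. Antithrombin, Serpinc1, the main plasma inhibitor of thrombin, had 292 ± 29.5 in the control pool and 2861 ± 286 in the CMS pool, 9.82-fold higher (log2 ratio 3.30 ± 0.21). Protein C, Proc, the protease that inactivates factors V and VIII, had 120 ± 12.5 and 510 ± 51.2, 4.26-fold higher (2.09 ± 0.21). Heparin cofactor II, Serpind1, had 213 ± 21.8 and 506 ± 50.9, 2.38-fold higher (1.25 ± 0.21). These 3 plasma proteins of the liver were the only ones of the 7 inhibitors with a ratio by RefSeq-named probes to pass 2-fold. Of all genes with a ratio, 1.96% were more than 2-fold higher. Serpind1 no longer passed 2-fold after normexp correction, at 0.96.

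The genes of the protein C system other than Proc did not pass 2-fold. Thrombomodulin, Thbd, the endothelial receptor that turns thrombin toward protein C, had 767 ± 76.8 in the control pool and 669 ± 67.0 in the CMS pool (log2 ratio -0.20 ± 0.20). The endothelial protein C receptor, Procr, which presents protein C to that complex, had 81.0 ± 9.21 and 50 ± 6.66 (-0.70 ± 0.25), a signal 1.62-fold lower that was beyond 2 scanner errors and not past 2-fold. Protein S, Pros1, the cofactor of activated protein C, had 224 ± 22.7 and 292 ± 29.5 (0.39 ± 0.21), the highest ratio among the genes made in vessels or brain. Tissue factor pathway inhibitor, Tfpi, which endothelium makes, was read by 3 probes with log2 ratios of -0.08, 0.29 and -0.14. Tissue factor itself, F3, had 2637 ± 264 and 2779 ± 278 (0.08 ± 0.20), and its other probe had 230 and 190 (-0.28 ± 0.21). For Tfpi and F3 the sign thus changed from probe to probe.

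Fibrinolysis showed the same division between precursor and activators. Plasminogen, Plg, the plasma precursor of plasmin, had 61.2 ± 7.08 in the control pool and 512 ± 51.3 in the CMS pool, 8.37-fold higher (log2 ratio 3.06 ± 0.22). Its activator in vessels and neurons, tissue plasminogen activator (Plat), had 453 ± 45.4 and 428 ± 43.0 (-0.08 ± 0.20). The other activator, urokinase (Plau), was dim on both arrays, with 4.58 and 14.1, and its receptor, Plaur, had 109 ± 11.9 and 131 ± 14.0 (0.27 ± 0.22). Thus the target of the activators was higher and the measured activator was not. The inhibitors of fibrinolysis from the liver were also higher. Antiplasmin, Serpinf2, went from 97.6 ± 10.9 to 626 ± 62.8, 6.41-fold. Carboxypeptidase B2, Cpb2, which trims plasminogen-binding ends from fibrin, went from 85.3 ± 9.37 to 434 ± 43.5, 5.08-fold. Histidine-rich glycoprotein, Hrg, which binds plasminogen and heparin, went from 59.6 ± 7.42 to 245 ± 24.9, 4.11-fold. In all, 4 of the 6 fibrinolysis genes with a ratio were more than 2-fold higher, where 1.96% of all genes with a ratio were.

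The vitamin K cycle, on which F2, F7, F9, F10, Proc, Pros1 and Proz depend, gave similar signals. Vkorc1, the reductase that warfarin blocks, had 3805 ± 380 in the control pool and 3900 ± 390 in the CMS pool (log2 ratio 0.04 ± 0.20), and its other probe had 938 and 946. Ggcx, the carboxylase, had 139 ± 14.5 and 156 ± 16.1 (0.17 ± 0.21). Neither enzyme was beyond 2 scanner errors.

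**Figure D3:**
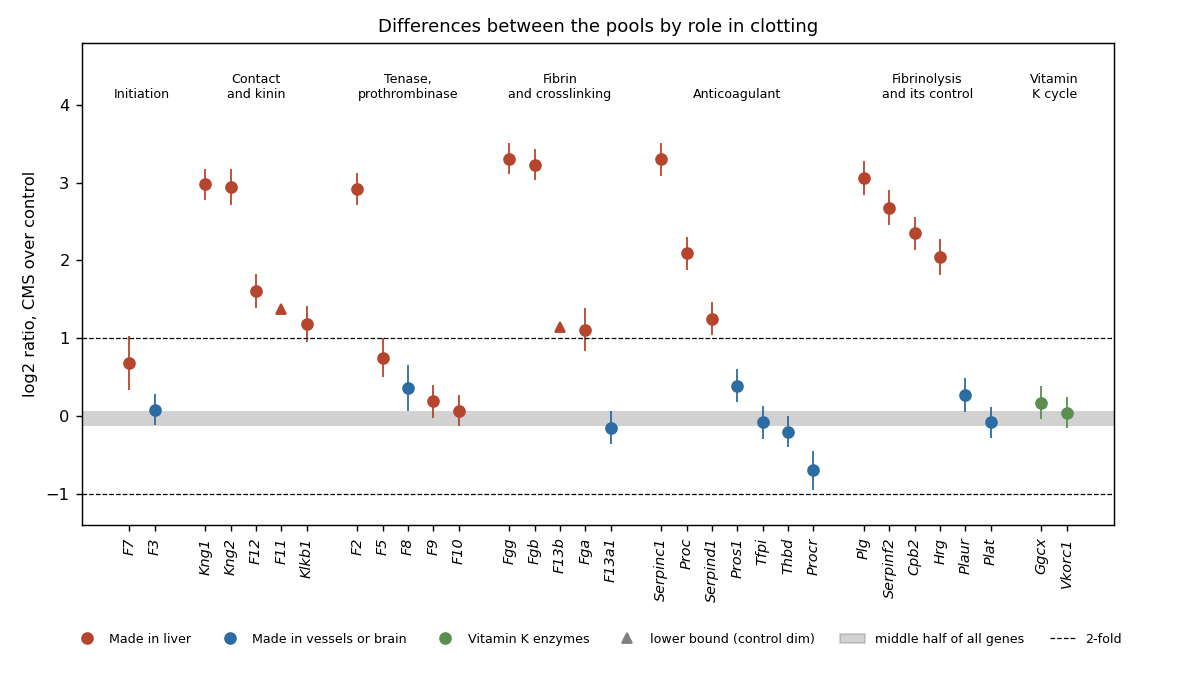
Log2 ratio of CMS over control for the 32 genes with a ratio, grouped by role, with the scanner's error as bars and triangles for genes dim in the control pool. The triangle is a lower bound for F13b and the measured ratio for F11. The gray band runs from the lower to the upper quartile of all genes, -0.13 to 0.07, and dashed lines mark 2-fold. Within each role the points past 2-fold are liver-made genes, from Fga at 1.11 to Fgg at 3.31, and the points of genes made in vessels or brain lie between -0.70 and 0.39.

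Set side by side, 17 of the 21 liver-made genes with a ratio passed 2-fold toward the CMS pool. So did 15 of the 19 that were bright on both arrays, where 1.16% of all such genes did. Their median log2 ratio was 2.04, with a range of 0.07 to 3.31, where the median of all genes was -0.03. Of the 9 genes with a ratio that are made in vessels or brain, 0 were past 2-fold in either direction (2.53% of all genes), and their median was -0.08, with a range of -0.70 to 0.39. The difference between these medians was 2.12. The ratios of 19 of the 21 liver-made genes lay above the highest ratio of the other group, that of Pros1. The exceptions were F9 and, by its brightest probe, F10. That F10 probe also set the low end of the range, 0.07, while the other F10 probe had a log2 ratio of 2.85. Among genes bright on both arrays, 16 liver-made genes were higher by more than 2 scanner errors (2.57% of all such genes) and Procr was lower by more than 2 (1.69%). The ratios of the liver-made genes were thus spread over a wide range, and no test of the difference between the groups of genes was made.

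Further genes showed the same split, in fixed lists that were chosen with earlier results of these data known. Not all genes of these lists act mainly in clotting. Of 12 other liver-made genes, 11 had a ratio and 8 were more than 2-fold higher (1.96% of all genes with a ratio), with a median log2 ratio of 1.99. Apoh, a plasma protein that binds phospholipid surfaces, had 229 and 1686 (2.88 ± 0.21), and Pzp, a protease inhibitor of the macroglobulin family, had 237 and 2029 (3.10 ± 0.21). Apoh was also drawn by the study from these arrays, so its direction is not independent evidence. Serpina10, the inhibitor that works with protein Z, had 112 and 380 (1.76 ± 0.21), and Fgl1, a fibrinogen-like protein, had 112 and 630 (2.49 ± 0.21), with 63.3 and 177 (1.48) on its other probe. The membrane protease Tmprss6, with 69.5 and 277 (1.99 ± 0.22), was also higher. The plasma proteins Habp2 and Masp1, dim in the control pool, were at least 5.86- and 2.55-fold higher. Mst1, also dim there, had 19.8 and 105, a measured ratio of 5.30-fold. The other genes did not pass 2-fold. Adamts13, the protease that cleaves von Willebrand factor, had 41.2 and 35.6 (-0.21 ± 0.29), Thpo, the growth factor of platelet precursors, had 25.2 and 22.8 (-0.14 ± 0.43), and Hgfac had a higher signal in the CMS pool, 106 and 204 (0.94 ± 0.22), just short of 2-fold. Serpina5 was dim on both arrays.

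Of 19 other genes made in vessels or brain, 13 had a ratio and 0 were past 2-fold (2.53% of all genes), with a median of -0.06. Von Willebrand factor, Vwf, had 1332 in the control pool and 1149 in the CMS pool (-0.21 ± 0.20). The protease nexin Serpine2, which neurons and glia make, had 1193 and 1095 (-0.12 ± 0.20). Among 14 platelet genes, 11 had a ratio with a median of 0.07. The platelet receptor gene Gp5, dim in the control pool, had 18 and 36.6, a measured ratio of 2.03-fold (1.02 ± 0.45). Gp1bb had 337 and 319 (-0.08 ± 0.21), while the defining genes Gp1ba, Gp6 and Itga2b were dim on both arrays.

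Hepatocyte markers moved with the liver-made clotting genes. All 20 listed markers were bright on both arrays and 19 were more than 2-fold higher, where 1.16% of all genes bright on both arrays were. Their median log2 ratio was 3.26, with summed signals of 7860 in the control pool and 70995 in the CMS pool. Alb, Ahsg and Ttr, which encode plasma proteins, had log2 ratios of 3.53, 3.38 and 3.38. The exception was Tat, an enzyme of tyrosine breakdown, with 508 and 848 (0.74 ± 0.20). Among regulators of hepatocyte genes, Hnf4a had 45.1 and 529 (3.55 ± 0.24). Nr1h4, dim in the control pool, had 23.5 and 77.7, a measured ratio of 3.31-fold. Cebpa, Cebpb and Nr1i3 had log2 ratios of 0.28, 0.30 and -0.18. The other Nr1i3 probe, dim in the control pool, was at least 1.6-fold higher. Foxa1, Foxa2, Foxa3 and Onecut1 were dim on both arrays. Several genes named or listed here, among them Hnf4a, Ahsg, Apoa1, Apob, Fabp1 and Hpx, were also drawn by the study from these arrays and are not independent evidence. The part of hepatocyte RNA in the result was not tested.

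Markers of other liver cells and of blood were read partly by dim probes, for which only bounds are known. Of 5 Kupffer cell markers, 4 had a ratio and 1 was more than 2-fold higher (1.96% of all genes with a ratio), Clec4f by at least 2.20-fold. Vsig4 was at least 1.98-fold higher, Cd5l had a log2 ratio of 0.29 and Timd4 was dim on both arrays (summed signals 314 and 455). Of 5 markers of liver sinusoidal endothelium, 2 were more than 2-fold higher, Stab2 at 1.09 and Clec4g at 1.15, and Lyve1 was at -0.17 (643 and 768). The median log2 ratios of these lists were 0.70 and 0.33 with bounds for dim probes, and 1.52 and 1.09 with the measured signals of dim probes in place of bounds. Of 8 erythroid markers 6 were on the arrays and 3 had a ratio, with a median of 0.49, Hba-a1 at 0.41 and Alas2 at 0.49, while Epb42 and Rhag were dim on both arrays (19471 and 25828). None of these erythroid genes passed 2-fold, and the part of these cells in the result was not tested.

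Markers of the cells that make the vessel and brain factors did not pass 2-fold between the pools. All 10 brain endothelium markers were well above background and 0 were past 2-fold, with a median of -0.02, Cldn5 at 0.19, Pecam1 at 0.02 and Cdh5 at -0.06 (summed signals 27763 and 28533). The median was -0.15 for border macrophages (3 of 4 with a ratio, Mrc1 at 0.11, Cd163 dim, 661 and 595). Among them Ms4a7, with 146 and 104 (-0.48 ± 0.22), was lower by more than 2 scanner errors. For choroid plexus the median was 0.18 (6 of 6, Folr1 at 0.11, Kl at 0.25, Clic6 at -0.08, 554 and 552). Otx2 and Slc4a5 were dim in the control pool, and over the 4 choroid plexus genes bright on both arrays the median was 0.02. Neuron markers had a median of -0.01 (8 of 8, Snap25 at -0.02, Syt1 at -0.04, Rbfox3 at -0.03, 248335 and 245733) and astrocyte markers -0.09 (7 of 7, Gfap at -0.30, Aqp4 at 0.04, Aldh1l1 at 0.03, 235778 and 221278). Neuron and astrocyte markers were thus well above background in both pools, as the label of brain tissue requires, and none of these lists held a gene past 2-fold.

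**Figure D4:**
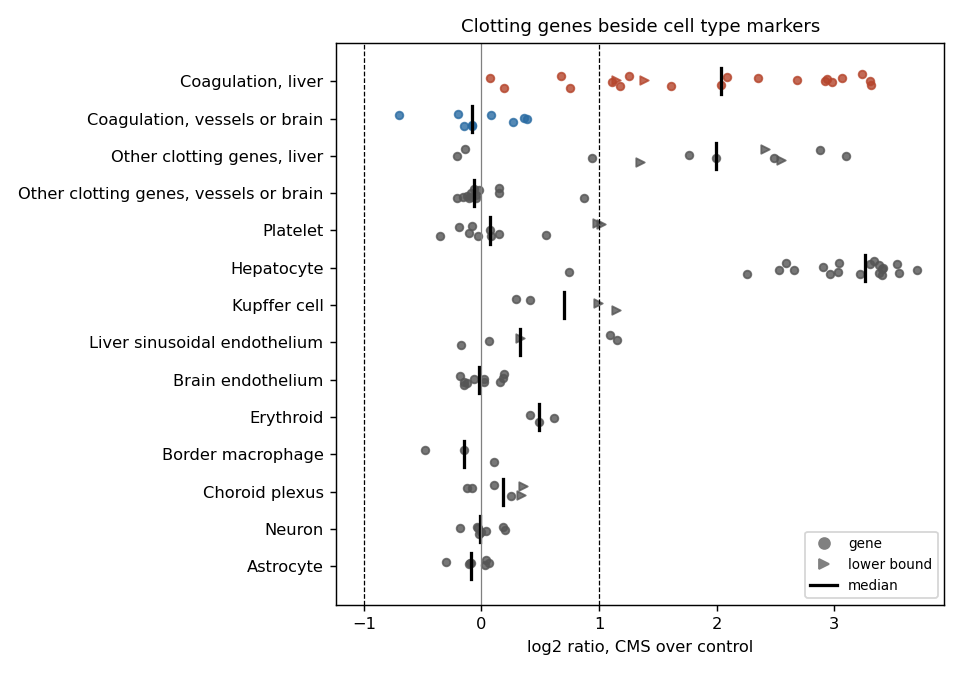
Log2 ratio of CMS over control for the clotting genes, the further listed genes and cell type markers, with 1 point per gene and a black line at each median. Arrowheads mark genes dim in the control pool, as lower bounds or, where the probe's own signal was above the lowest bright signal, as measured ratios. The liver-made clotting genes, with a median of 2.04, and the hepatocyte markers, with a median of 3.26, lie to the right of the brain endothelium, neuron and astrocyte markers, whose medians lie between -0.09 and -0.01.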

How the data were processed

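Per the labels, RNA was labeled with Cy3 and images were read with Agilent Feature Extraction 10.10.1.1. For each spot the authors deposited a background-subtracted, spatially detrended signal intensity without scaling between arrays. They also deposited a table of scaled intensities, 1.80 (control) and 2.05 (CMS) times the scanner values, used as an alternative. Outlier spots (130 and 133) were left out, and the remaining spots were averaged to 55674 probes. A probe was bright if a share of 0.5 or more of its spots were well above background, and otherwise dim. Each array was multiplied to reach a mean of 2500, as in the methods. Bounds for dim probes used lowest signals of 17.8 (control) and 17.6 (CMS). A gene was represented by its brightest probe on the log2 scale, and ratios above 2 or below 0.5 counted as changed. The log2 error combines the relative scanner errors of both arrays. RefSeq (GRCm38.p6) gene symbols were assigned by unversioned accession to 30740 of 59305 spots.

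The members and gene lists were chosen with earlier results of these data known. Named genes are all members, genes of the further lists past 2-fold with the first of each list, and the first 3 of each marker list with exceptions. The erythroid markers Hbb-b1 and Ahsp were not matched by name. Alternatives were other scalings, normexp with an offset of 50 and quantile normalization, the deposited table, other treatments of dim probes and other probe choices. The counting was tested on simulated data. Calculations used Python 3.11.15, numpy 2.4.6, pandas 2.3.3, R 4.3.3 and limma 3.58.1. The number of arrays limits the precision. A few genes of the lists are not reported here. Measurements other than the arrays were not analysed here.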

Additional observations from a re-analysis of the deposited data

How the results depend on the processing

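With 1 array per group, leaving out a replicate or blocking on slide was not possible. No paired analysis was possible because no group had more than 1 array. In the alternatives run, between 12 (normexp with quantile normalization) and 18 of the clotting genes were more than 2-fold higher, and 0 of those made in vessels or brain passed 2-fold. Of the summary values, 69 moved by no more than their limit, 12 moved further, and none reversed. Some of these values repeat the same count and others were 0 in every setting, so the 69 are not separate checks. The limits were 1.5 times for counts and, for medians, the error that the spread of 0.13 between spots gives.

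The median log2 ratio of liver-made genes, 2.04, was 1.87 with no scaling, 1.25 under normexp, 2.09 both with no bound for dim probes and with bright probes alone, and 2.35 with the dimmest probe of each gene, an alternative chosen after seeing the data. The median for genes made in vessels or brain, -0.08, was -0.25 with no scaling and -0.02 under normexp. The difference of these medians, 2.12, was 1.27 under normexp and 2.42 with the dimmest probe. The number of genes past 2-fold in either direction, 685 (532 higher and 153 lower), was 303 under normexp, 1090 with no bound and 338 with probes bright on both arrays, where fewer probes enter by construction. With no scaling it was 678 (428 higher and 250 lower), the share of higher genes was 63.1% in place of 77.7%, and the median of all genes went from -0.03 to -0.20, by construction.

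Some genes past 2-fold in the report were below it elsewhere, namely F13b and Fga with no scaling (0.97 and 0.94) and F11, F13b, Fga, Klkb1 and Serpind1 under normexp (0.38, 0.50, 0.42, 0.67 and 0.96). F10 passed 2-fold with the mean of its probes (1.46) and with its dimmest probe (2.85). Near 0, the sign of F10, F3, Tfpi, Vkorc1 and Ggcx depended on the setting, and Procr ran from -0.87 to -0.24. Fgg ran from 3.13 to 3.33, Fgb from 2.98 to 3.25 and Serpinc1 from 3.01 to 3.32. Other causes of these moves were not tested. Signal over background limits the genes with dim probes, F11, F13b, Plau and the RefSeq-named probe of Proz. Counting AK005011 as Proz, chosen after other results were seen, gave 18 genes higher and a liver-made median of 2.06.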
